A study of Mus musculus with 6 samples.

Results

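The S-phase and mitotic genes described here are 43 genes that drive DNA replication and cell division and that are commonly listed among genes whose expression falls when p53 is active. They were taken by name, and all 43 were found among the 22380 protein_coding genes of the annotation. p53 ChIP-seq, in which DNA fragments bound by p53 are pulled down with an antibody and sequenced, had been carried out in mouse spleen, and a peak is a stretch where such fragments pile up. A gene was called bound when the midpoint of a peak fell in its promoter, taken as the 5 kb before and the 2 kb after any annotated transcription start site.

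The series has 6 libraries and 5 peak lists. Splenic B cells, selected with B220 MicroBeads, and the non-B cells left after that selection came from 8-week-old wild-type C57/Bl6 mice, either mock-treated or taken 4 h after 7 Gy of whole-body irradiation (IR). Total spleen of irradiated Trp53-/- mice, which lack p53, was processed with the same antibody after the same dose and time, and their age is not given in the sources used here. An input library was sequenced without a peak list. Chromatin was pooled from 10 animals and each group had 1 library, so no difference between lists could be set against replicate error and no test was run. Intervals below are 95% Wilson intervals and cover counting error only. The non-B cell fraction holds several cell types, and in either fraction weaker binding in all cells and binding in fewer cells cannot be told apart. The lists hold no expression values, so neither the purity of the fractions nor the repression of the 43 genes was checked.

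The transcription factor p53 accumulates when DNA is damaged and binds a response element made of a pair of decamers. It switches on genes such as Cdkn1a, whose product p21 inhibits cyclin-dependent kinases. Genes of the cell division programme are held down when these kinases are inactive, by Rb family proteins together with E2F factors and by the DREAM complex, which reaches promoters through E2F sites and through the cell cycle genes homology region (CHR). Whether p53 also sits on the promoters of these genes, and through which sequence, is the question that the comparison with all promoters addresses.

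After IR most S-phase and mitotic genes had a p53 peak in the promoter. In irradiated B cells 34 of 43 were bound (79.1%, interval 64.8 to 88.6%), against 39.2% of all protein_coding genes. In irradiated non-B cells 32 of 43 were bound (74.4%, interval 59.8 to 85.1%), against 38.1%. Bound in both IR lists were 30 members (69.8%), against 35.5% of all protein_coding genes, and 36 were bound in at least 1 of them (83.7%), against 41.9%. Without irradiation nearly all of these promoters had no peak. In mock B cells 2 members were bound (4.65%, interval 1.28 to 15.5%), where 1.95% of all genes were. In mock non-B cells 0 of 43 were bound, where 0.947% of all genes were, and in the Trp53-/- spleen list 0 of 43, where 0.067% of all genes were. The IR lists were longer than the other lists, with 24507 and 21400 peaks, against 1413 and 712 in the mock lists and 83 in the Trp53-/- list. Their smallest peak was 174 to 175 bp wide, against 53 to 55 bp in the other lists, and the part of these differences in the counts was not tested.

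**Figure D1:**
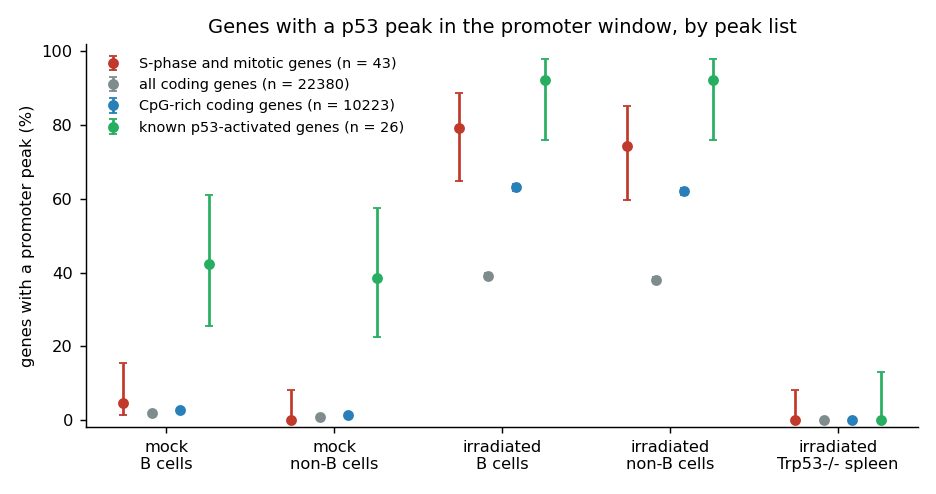
Share of genes with a peak in the promoter window (vertical axis, percent) in each of the 5 peak lists, for the 43 S-phase and mitotic genes, all coding genes, CpG-rich coding genes and 26 known p53-activated genes; bars are 95% Wilson intervals for counting error, with 1 library a list. In both IR lists the members (79.1 and 74.4%) lie above all coding genes (39.2 and 38.1%) and below the known p53-activated genes (92.3%), and they are at or near 0 in the other 3 lists.

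The distance to the background was smaller among CpG-rich promoters, though not among the few CpG-poor ones. Promoters rich in the dinucleotide CpG were bound more often than others, and 37 of the 43 members (86.0%) had such a promoter, against 45.7% of all protein_coding genes. A promoter was called CpG-rich where the observed over expected CpG ratio within 500 bp of the main start site was at least 0.6. Of all CpG-rich genes 63.1% were bound in irradiated B cells and 62% in irradiated non-B cells, and of the 37 CpG-rich members 30 (81.1%, interval 65.8 to 90.5%) and 28 (75.7%, interval 59.9 to 86.6%). Of CpG-poor genes 19.1 and 18.1% were bound, and of the 6 CpG-poor members 4 in each IR list (66.7%, interval 30.0 to 90.3%). That interval lay above both CpG-poor shares, with only 6 genes. In both IR lists at once, 26 of the 37 CpG-rich members were bound (70.3%, interval 54.2 to 82.5%), against 58.1% of CpG-rich genes. The interval of the CpG-rich members lay above the CpG-rich share in irradiated B cells and held it in irradiated non-B cells and in both at once. Members also had more annotated start sites, with a median of 4 against 2, which widens the window searched. Among CpG-rich genes with 4 or more start sites, 18 of 20 members were bound in irradiated B cells against 70.9% of such genes, and 16 of 20 in irradiated non-B cells against 69.9%. Among those with 2 or 3 start sites, 6 of 7 members were bound in each IR list, against 59.3% and 57.7%. Among those with 1 start site the counts were 6 of 10 members in each IR list, against 56.1% and 55.2% of such genes. These groups are small.

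The peaks at these promoters were of ordinary height. The lists give each peak a value, taken here as −log10 of the peak p-value, which varies with sequencing depth and with the surrounding signal and is used only to rank peaks within a list. That reading is not settled, since the calling limit stated in the methods, p below 1e-08, would correspond to a value of 8, and the lists hold lower values, from 5.01 upwards. Among the highest peaks of members, those of Ccne1 in irradiated B cells (7.46), Cenpe in irradiated non-B cells (7.49) and Cenpa in mock B cells (7.72) lie below 8. The highest promoter peak of the 34 members bound in irradiated B cells had a median value of 22.1 (range 7.46 to 125), against 22.7 over all bound protein_coding genes. In irradiated non-B cells the median was 23.2 (range 7.49 to 226), against 23.0. Ranked among all bound protein_coding genes, the members had a median percentile of 48.8 in irradiated B cells (95% interval of the median 32.1 to 70.9) and 51.0 in irradiated non-B cells (33.9 to 65.2), so they sat in the middle of the ranking. The same median was 98.1 in either list for the 24 bound genes of a list of 26 known p53-activated genes, such as Cdkn1a. In the upper 20% of the list by value were the highest peaks of 6 of 34 members in irradiated B cells (17.6%) and 5 of 32 in irradiated non-B cells, against 19.2% and 22.2% of all bound genes and 18 and 17 of the 24 p53-activated genes. Peak widths were similar in members and in all bound genes, and larger at p53-activated genes. The median width was 388 bp for members and 377 bp for all bound genes in irradiated B cells, and 332 bp and 346 bp in irradiated non-B cells, whereas it was 1100 bp and 1046 bp for p53-activated genes.

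**Figure D2:**
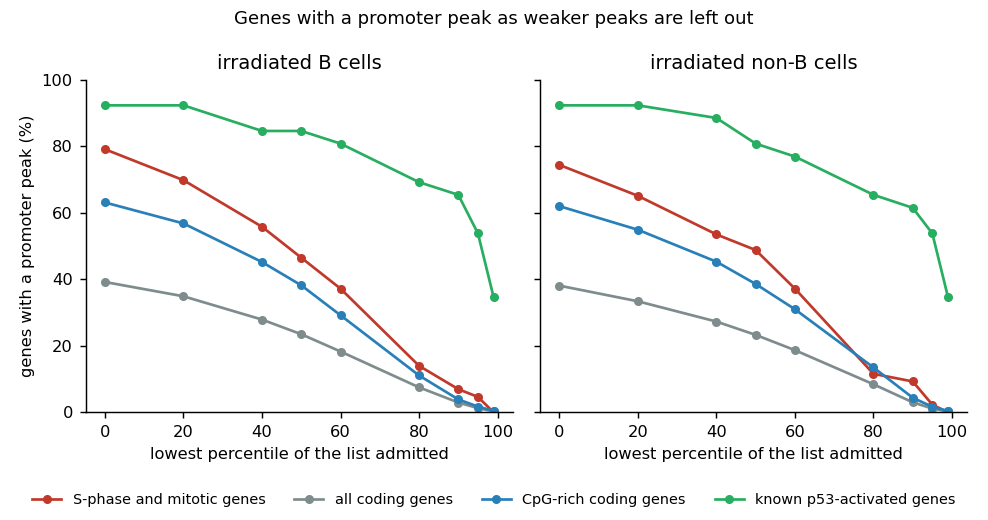
Share of genes that keep a promoter peak (vertical axis, percent) as peaks below a given percentile of the list by value are left out (horizontal axis), in irradiated B cells and irradiated non-B cells. When only the upper 20% of peaks are admitted in irradiated B cells, the members fall from 79.1 to 14.0%. All coding genes fall from 39.2 to 7.53%, CpG-rich coding genes from 63.1 to 11.1% and the known p53-activated genes from 92.3 to 69.2%.

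Most of the peaks lay near a start site. The midpoint of the highest peak was within 500 bp of an annotated start site of the gene for 26 of 34 members in irradiated B cells (76.5%) and 25 of 32 in irradiated non-B cells (78.1%), shares close to those of all bound genes (73.1 and 75.4%). The median position was −127 bp and −118 bp from the nearest start site, against −65 and −60 bp over all bound genes. Some peaks were nearer to the start site of a neighbour. In irradiated B cells these were the highest peaks assigned to Mcm2, which lay next to Tpra1, Mcm4, which shares its promoter with Prkdc, Aurka, which faces Cstf1, and Kif20a, which faces Brd8, and in irradiated non-B cells the first 3 of these. For Tpx2, Prc1, Rrm2, Ccne1, Ccne2, Mcm7, Cenpa and Aurka the start site nearest to the highest peak in irradiated B cells was not the main start site, taken as the start of most protein_coding transcripts.

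In the order of their roles, the cyclins and cyclin-dependent kinases had low peaks apart from Ccna2. Ccna2, cyclin A2, which partners Cdk2 in S phase and Cdk1 in mitosis, had 1 peak at its start site with a value of 47.6 in irradiated B cells and 57.4 in irradiated non-B cells, at percentiles 87.2 and 92.1 among bound genes. Cdk1, the kinase of mitotic entry, had values of 12.2 and 10.3. Ccne1, cyclin E1, which activates Cdk2 at the entry into S phase, had values of 7.46 and 11.2, with the midpoint 2.59 kb downstream of the nearest annotated start site and within 5 kb upstream of an internal one. Ccnb1, cyclin B1, and Ccne2, cyclin E2, had a value of 8.33 each in irradiated B cells and no promoter peak in irradiated non-B cells. Ccnb2 and Cdk2 were bound in neither list. Of the CDC25 phosphatases, which remove the inhibitory phosphates from these kinases, Cdc25a had values of 19.4 and 17.3 and Cdc25c of 17.5 and 13.6, while Cdc25b had no promoter peak.

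Replication licensing factors were bound nearly throughout, with 7 of 8 in each IR list and 6 in both, at middling values, beside 63.1 and 62% of CpG-rich genes in the IR lists and 58.1% in both. Cdc6, which loads the Mcm helicase, had values of 27.7 in irradiated B cells and 21.8 in irradiated non-B cells. Cdt1, its partner in loading, had values of 17.4 and 27.6. For the helicase subunits, the highest values were those of Mcm2 and Mcm4, at 33.9 each in irradiated B cells and 31.5 each in irradiated non-B cells, and both of these peaks were nearer to the start site of another gene. The peak at the start site of Mcm2 itself was lower, at 15.1 and 14.2. Mcm3 had values of 11.1 and 20.7, and Mcm7 of 23.5 and 22.5. Mcm5 was bound in irradiated B cells alone, at 16.9, and Mcm6 in irradiated non-B cells alone, at 13.6.

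Enzymes of nucleotide supply included some of the highest peaks. Rrm2, the regulated subunit of ribonucleotide reductase, had a peak of 101 in irradiated B cells and of 59.1 in irradiated non-B cells, at percentiles 97.4 and 92.5 among bound genes, and Rrm1, its large subunit, had values of 43.1 and 35.3. Tk1, thymidine kinase, had a peak of 30.4 and 24.3 more than 2 kb upstream of its start site, in a window shared with Afmid. Tyms, thymidylate synthase, had no promoter peak, and the peaks nearest to it, 17.7 kb away, had values of 96.8 and 125.

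Apart from Aurkb in irradiated B cells, at percentile 79.9 among bound genes, the mitotic kinases were bound at low to middling values. Aurkb, the kinase of the chromosomal passenger complex, had 3 promoter peaks in each IR list, all upstream of its start site by 1.72 kb or more, the highest at 38.4 in irradiated B cells and 14.9 in irradiated non-B cells. Aurka, which acts at spindle poles, had values of 15.2 and 8.74, and Plk4, which starts centriole duplication, of 20.6 and 23.5. Plk1, polo-like kinase, had a value of 8.72 in irradiated B cells and no promoter peak in irradiated non-B cells. Plk1 was also bound in mock B cells, by a peak of 55 bp with a value of 10.3, so this start site carried a peak in B cells with and without IR.

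Of the spindle checkpoint and anaphase factors, Mad2l1, which encodes the checkpoint protein Mad2, had values of 31.7 in irradiated B cells and 41.0 in irradiated non-B cells. Cdc20, the activator of the anaphase-promoting complex, had 26.5 and 15.5, and Bub1b, the checkpoint kinase-like protein BubR1, 19.5 and 15.6. Bub1 had no promoter peak. Of the transcription factors that turn on mitotic genes, Mybl2, or B-Myb, had values of 26.5 in either list, and Foxm1 had none.

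Among chromosome, centromere and spindle proteins stood the member with the highest peak. Birc5, survivin, the inhibitor of apoptosis protein that is also a subunit of the chromosomal passenger complex, had a value of 125 in irradiated B cells and 226 in irradiated non-B cells, at percentiles 98.3 and 99 among bound genes. Its peak was also wide, at 1301 bp and 1224 bp. Cenpa, the histone H3 variant of centromeres, had values of 45.8 and 59.9, and it was the other member bound in mock B cells, by a peak of 55 bp with a value of 7.72 that its irradiated B cells peak overlapped. Tpx2, a spindle assembly factor, had values of 32.8 and 24.5, Kif11, the kinesin that pushes spindle poles apart, of 20.7 and 26.4, and Top2a, topoisomerase II alpha, of 13.6 and 18.2. Cenpe, a kinetochore kinesin, was bound in irradiated non-B cells alone, at 7.49. Mki67, the gene of the proliferation marker Ki-67, was bound in neither.

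All 4 cytokinesis genes were bound in both IR lists, where 35.5% of all and 58.1% of CpG-rich genes were. Kif23, a kinesin of the central spindle, had values of 61.4 in irradiated B cells and 29.0 in irradiated non-B cells. Kif20a, a kinesin of the same structure, had 31.4 and 23.0. Prc1, which bundles its microtubules, had 11.1 and 30.2 at 1479 bp downstream of an internal start site, and lower peaks of 10.6 and 18.9 just upstream of its main start site. Ect2, the exchange factor that activates RhoA at the cleavage furrow, had 15.2 and 20.6.

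**Figure D3:**
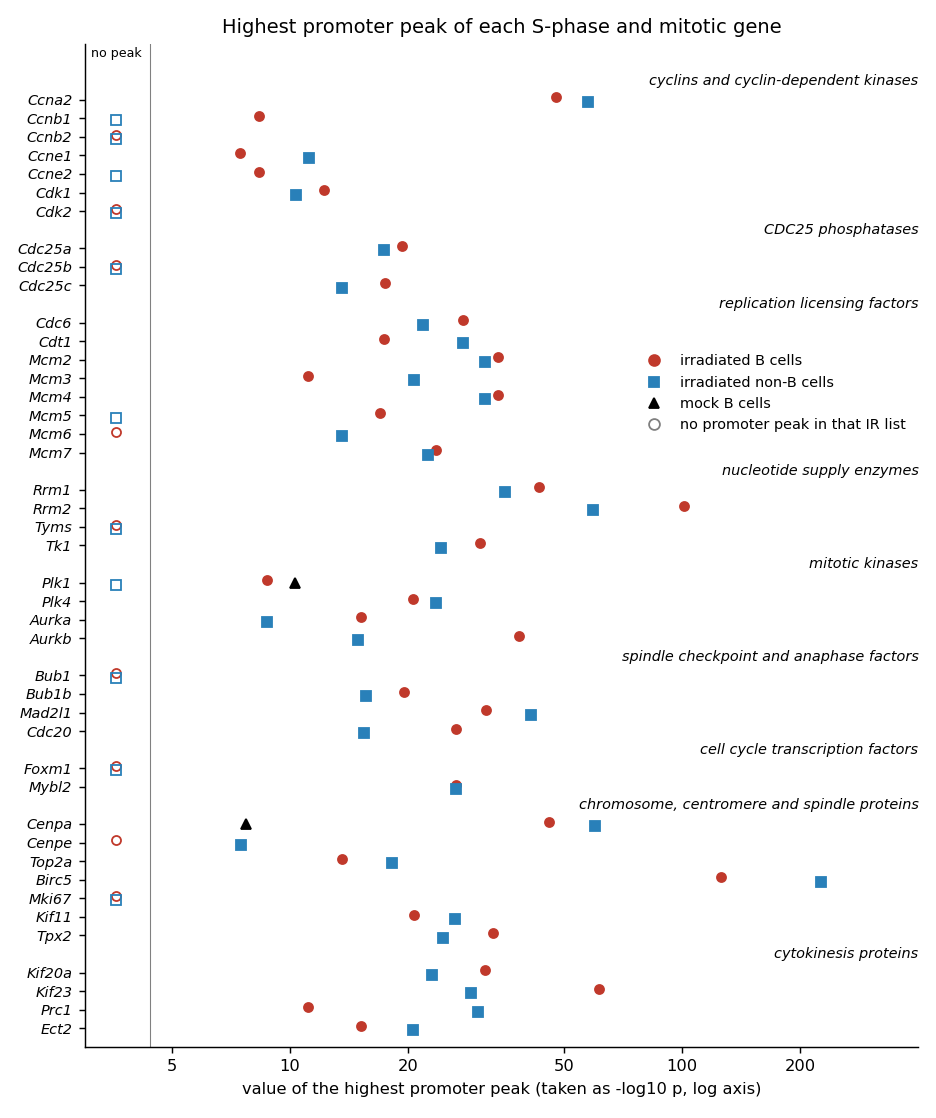
Value of the highest promoter peak (horizontal axis, deposited value, taken as −log10 p, log scale) for each of the 43 genes, grouped by role, in irradiated B cells (circles), irradiated non-B cells (squares) and mock B cells (triangles); open symbols at the left mark genes with no promoter peak in that IR list, and values are not normalised between lists. Birc5 has the highest value in both IR lists, at 125 and 226, followed by Rrm2 at 101 in irradiated B cells and Cenpa at 59.9 in irradiated non-B cells, and only Plk1 and Cenpa have a triangle.

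The 7 genes bound in neither IR list came from 6 roles. In irradiated B cells the peak nearest to a start site of Cdk2 was 8.62 kb away, that of Bub1 12.8 kb, Foxm1 13 kb, Cdc25b 17.3 kb, Tyms 17.7 kb, Mki67 19.6 kb and Ccnb2 46.5 kb. In irradiated non-B cells the nearest peak was at about the same distance for the other genes but 53.8 kb away for Foxm1. An absent peak does not show that a promoter was unbound, since the depth of the libraries is unknown.

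Of the 36 members bound in at least 1 IR list, 30 were bound in both (83.3%), against 84.7% of all protein_coding genes bound in at least 1. For 29 of the 30 members bound in both IR lists the highest peaks of the lists overlapped (96.7%), against 91.6% of the 7934 protein_coding genes bound in both, and the exception was Tpx2, whose highest peak was at −4025 bp from an internal start site in irradiated B cells and at its main start site in irradiated non-B cells. The percentiles of the 30 members in the lists had a Spearman rho of 0.692, beside 0.783 for the values of the 7934 protein_coding genes bound in both, as a description. The widest differences were those of Aurkb, at percentile 79.9 in irradiated B cells and 24.1 in irradiated non-B cells, and Prc1, at 12.6 and 67.3. The 6 members bound in 1 IR list only, 16.7% of the 36 against 15.3% over all genes, had low values there, from 7.49 for Cenpe to 16.9 for Mcm5. Of the 43 promoter peaks of members in irradiated B cells 2 overlapped a peak of a mock list and 0 a Trp53-/- peak, and of the 41 in irradiated non-B cells 1 and 0. Such overlaps were not counted for the 10801 and 9855 promoter peaks of all coding genes. Whether these small counts are particular to the members was therefore not tested, and the mock and Trp53-/- lists are short.

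**Figure D4:**
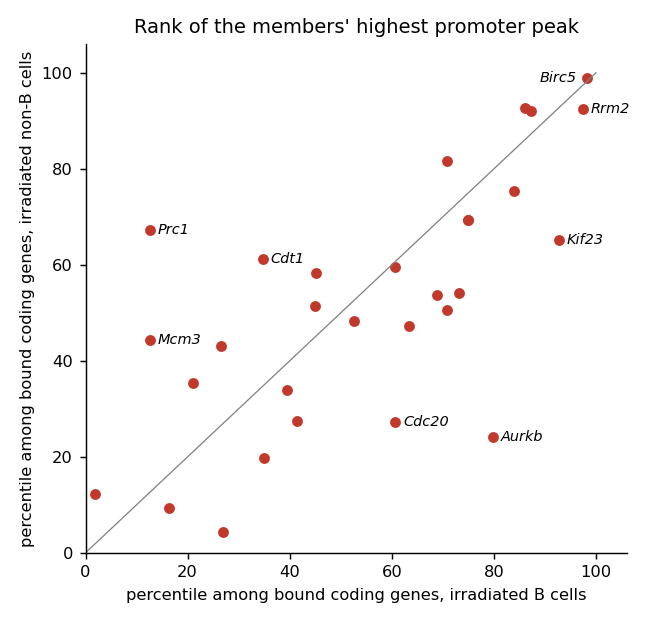
Percentile of the highest promoter peak among all bound coding genes in irradiated B cells (horizontal axis) against irradiated non-B cells (vertical axis) for the 30 members bound in both; each point is 1 gene and the line marks equal percentiles. Birc5 and Rrm2 are near the top in both lists, and Aurkb and Prc1 lie farthest from the line on opposite sides.

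The response element was found under the peaks of members about as often as under those of all bound genes. An element was counted when a pair of decamers without a spacer, called unsplit, had at most 3 mismatches, none of them at the C in position 4 or the G in position 7 of a decamer, within 300 bp of the midpoint of a promoter peak. In irradiated B cells 3 of 34 bound members had such an element (8.82%, interval 3.05 to 23.0%), against 9.10% of all bound protein_coding genes and 8 of 24 p53-activated genes (33.3%). In irradiated non-B cells there were 3 of 32 (9.38%, interval 3.24 to 24.2%), against 8.37% and 9 of 24 (37.5%). The same 3 members, Kif23, Rrm2 and Mcm2, carried it in both lists. The count depended on the rule, and was 1 in each list with at most 2 mismatches, 5 and 6 with at most 4, and 8 and 7 with promoters of 10 kb on either side of a start site. The share of all bound genes was not computed under these other rules, so these counts cannot be set against 9.10 and 8.37%. With a spacer of 1 to 15 bases allowed between the decamers, 19 of 34 members in irradiated B cells had a match (55.9%, interval 39.5 to 71.1%) and 15 of 32 in irradiated non-B cells (46.9%, interval 30.9 to 63.6%), against 42.6% and 40.9% of all bound genes.

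The Kif23 and Rrm2 elements are printed because they lie under the highest peak of these genes. The Kif23 element is at chr9:61794833-61794852 of mm9 on the minus strand, between genes, with its centre at −236 bp from the main start site and 2 mismatches. The Rrm2 element is at chr12:25394537-25394556 on the plus strand, in an intron, with its centre 1441 bp downstream of the main start site and 3 mismatches. Each is shown with 40 bases on either side, 5′ to 3′ in the direction of the gene, and the capitals mark the 20 bases of the element.
Kif23: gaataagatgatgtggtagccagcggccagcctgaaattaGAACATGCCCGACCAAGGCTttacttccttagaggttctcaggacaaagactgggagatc
Rrm2: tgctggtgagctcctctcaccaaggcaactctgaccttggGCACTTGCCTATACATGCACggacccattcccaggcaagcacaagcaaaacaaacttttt

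The Mcm2 element, at chr6:88848639-88848658 on the minus strand, is in a coding exon, 126 bp downstream of the start site, and has 3 mismatches. It lies under the lower of the Mcm2 peaks, and the capitals mark the required C and G of each decamer.
Mcm2: gagCtaGcgcagaCatGgcg

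Birc5, with the highest peak of all members, had no unsplit element within 300 bp of the midpoint, nor anywhere within the peak. A pair of decamers with a 1-base spacer and 2 mismatches lay inside the peak, between its midpoint and its downstream edge, at chr11:117710312-117710332 on the plus strand, between genes, with its centre at −243 bp from the start site. This pair was searched for after the value of this peak was seen, and it did not lie wholly within 300 bp of the midpoint. Another pair, with a 14-base spacer and 2 mismatches, overlapped it, and 2 other spaced pairs were within 300 bp of the midpoint. In irradiated B cells 42.6% of all bound protein_coding genes had a spaced pair by the 300 bp rule. The 300 bases before the Birc5 start site, chr11:117710265-117710564 on the plus strand, are printed with the pair of 1-base spacer in capitals.
Birc5: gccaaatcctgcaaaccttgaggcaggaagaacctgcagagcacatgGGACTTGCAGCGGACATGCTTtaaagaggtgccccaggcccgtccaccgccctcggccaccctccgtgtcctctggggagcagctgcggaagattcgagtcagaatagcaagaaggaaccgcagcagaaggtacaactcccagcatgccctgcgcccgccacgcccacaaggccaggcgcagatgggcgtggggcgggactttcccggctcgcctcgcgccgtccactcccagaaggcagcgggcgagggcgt

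Motifs known from promoters of the cell division programme were counted on both strands in the 250 bases before the main start site, and overlapping matches of different motifs were each counted. The CCAAT box (CCAAT), a general promoter box that binds NF-Y, was found in 32 of 43 members (74.4%, interval 59.8 to 85.1%), against 35.0% of all protein_coding genes, 35.2% of CpG-rich genes and 9 of 26 p53-activated genes. An E2F-like core (TTTCGCGC, TTTGGCGC, TTTCCCGC or TTTGCCGC) was found in 7 members (16.3%, interval 8.12 to 30.0%), against 2.21% of all genes, 4.00% of CpG-rich genes and 0 of 26 p53-activated genes. These 7 were Cdk1, Cdk2, Cdc25a, Mcm3, Mcm4, Mcm5 and Mcm6. The CHR (TTTGAA or TTCGAA, the second of which reads the same on either strand) was found in 12 members (27.9%, interval 16.7 to 42.7%), against 16% of all genes, 10.5% of CpG-rich genes and 5 of 26 p53-activated genes. Members bound in irradiated B cells and those not bound had these motifs at shares whose intervals overlapped, with a CHR in 10 of 34 against 2 of 9, a CCAAT box in 24 of 34 against 8 of 9 and an E2F-like core in 5 of 34 against 2 of 9. A match in these letters is not evidence that a factor was bound.

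**Figure D5:**
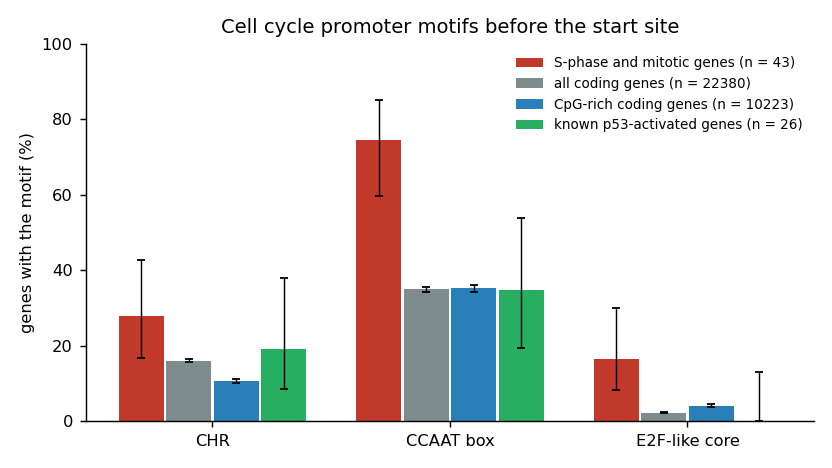
Share of genes (vertical axis, percent) with each motif in the 250 bases before the main start site, for the same gene groups as in the plot of bound shares; bars have 95% Wilson intervals for counting error. The members reach 74.4% for the CCAAT box and 16.3% for the E2F-like core, above the other 3 groups, and for the CHR and the E2F-like core the interval of the members overlaps that of the p53-activated genes.

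Of the 12 members with a CHR, 8 had it covered by a p53 peak in irradiated B cells. These were Cdk1, Cdc25c, Mcm2, Bub1b, Cdc20, Top2a, Kif11 and Ect2. The same count was not made over all protein_coding genes, so whether it is particular to the members was not tested. The 3 with the highest such peak are Cdc20 (26.5), Kif11 (20.7) and Bub1b (19.5). The 200 bases before their start sites are shown because a p53 peak, a CHR and a CCAAT box fall there together. They are at chr4:118109958-118110157 on the minus strand for Cdc20, chr19:37450693-37450892 on the plus strand for Kif11 and chr2:118423747-118423946 on the plus strand for Bub1b, all between genes, 5′ to 3′ in the direction of the gene. Capitals mark the CHR (6 bases) and the CCAAT box, read on either strand.
Cdc20: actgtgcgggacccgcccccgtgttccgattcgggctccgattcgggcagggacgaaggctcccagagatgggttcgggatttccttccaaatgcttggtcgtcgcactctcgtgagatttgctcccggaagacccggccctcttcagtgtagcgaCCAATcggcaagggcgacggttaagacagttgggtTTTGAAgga
Kif11: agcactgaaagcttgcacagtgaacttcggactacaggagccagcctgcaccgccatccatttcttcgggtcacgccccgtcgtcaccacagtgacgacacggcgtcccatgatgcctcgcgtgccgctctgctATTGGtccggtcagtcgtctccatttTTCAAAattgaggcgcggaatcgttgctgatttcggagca
Bub1b: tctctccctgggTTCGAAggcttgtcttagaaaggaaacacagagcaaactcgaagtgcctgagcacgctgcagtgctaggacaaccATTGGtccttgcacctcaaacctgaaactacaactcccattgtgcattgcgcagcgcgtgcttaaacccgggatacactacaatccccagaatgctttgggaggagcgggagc

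Other gene lists give these counts their scale. Of the 26 known p53-activated genes, 24 were bound in each IR list, and 11 and 10 were bound already in mock B cells and mock non-B cells, where the members had 2 and 0. Cdkn1a had values of 41.2 in mock B cells, 318 in irradiated B cells, 44.4 in mock non-B cells and 621 in irradiated non-B cells. Mdm2, the ubiquitin ligase of p53, had no promoter peak in mock B cells, 5.95 in mock non-B cells, and 224 and 294 in the IR lists. Bax, Bbc3 and Aen, which act in apoptosis, and Phlda3, an inhibitor of Akt, had values of 298, 270, 266 and 256 in irradiated B cells, above that of Birc5 at 125. Of the 18 genes for Rb family, E2F and DREAM proteins, 12 were bound in irradiated B cells (66.7%, interval 43.7 to 83.7%). In irradiated non-B cells 10 were bound (55.6%, interval 33.7 to 75.4%). Both intervals held the CpG-rich shares of 63.1 and 62%. The medians were 21.5 and 22.3, and 0 of the 18 were bound in the mock lists, where 1.95 and 0.947% of all genes were. The highest in irradiated B cells were Rbl2 (43.6), Rb1 (43.4), Lin37 (37.8) and Rbbp4 (28.9). Of 27 further replication and mitosis genes, 18 were bound in each IR list (66.7%, interval 47.8 to 81.4%), with medians of 12.1 and 18.6, close to the CpG-rich background of 63.1 and 62%. Among these Ccnf, cyclin F, had values of 135 and 127, Nuf2, a kinetochore protein, 51.0 and 66.0, and Ube2c 10.2 and 14.2, the last with peaks in mock B cells (10.3) and mock non-B cells (6.99) as well. Kif2c (30.1) and Kif4 (27.7) followed in irradiated B cells.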

How the data were processed

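The 43 genes, the comparison lists and the rules were chosen with earlier results of these data known. Per the labels and the methods of the study, chromatin from pooled spleens was precipitated with antibody NCL-p53-CM5p, reads were aligned to mm9 with BWA 0.6.2 and MACS gave 1 peak list for each of the 5 immunoprecipitated libraries; SAMtools is also named in the processing notes. The deposited lists give chromosome, start, end, name and a value, taken from its range to be −log10 of the p-value from the authors' peak caller. These values are not normalised between libraries and start at 5.01 to 5.85 across the lists, below the 8 that the stated limit of p below 1e-08 would leave, so their meaning is not certain. The smallest peak was 175 and 174 bp wide in the irradiated wild-type lists and 53 to 55 bp in the other lists. Read totals are not in the lists, so depth is unknown, and the input was not analysed here.

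Start sites came from GENCODE vM1 on NCBIM37, of which 22380 protein_coding genes were used. Sequences were read from that genome, and coordinates count from 1. Groups were taken from the sample titles. A gene takes the highest value among its promoter peaks, and percentiles are among bound protein_coding genes. The interval of a median was read from order statistics. Genes named with values were the members bound in a mock list, the 10 highest members in each IR list, those bound in 1 IR list or in neither, those with an unsplit element, and for comparison lists Cdkn1a, Mdm2 and up to 4 further genes a list by value in irradiated B cells; values of the other members and of Ube2c were added after they were seen. Alternatives were other windows, minimum values, start sites, backgrounds and element rules. Promoter assignment and the element search were tested on simulated data. Scripts ran in Python 3.11.15 with samtools 1.23.1, pysam 0.24.0, scipy 1.17.1, numpy 2.4.6 and matplotlib 3.10.9.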

Additional observations from a re-analysis of the deposited data

How the results depend on the processing

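Of 141 values recomputed under the alternatives, 115 stayed within 1.5 times the reported count or share, or within the interval of the reported median, and 26 moved. With a minimum value of 20 the members bound fell to 19 in irradiated B cells, beside 22.7% of all protein_coding genes. In irradiated non-B cells they fell to 21, beside 22.2%, and their median percentile was 33.5. In mock B cells they fell to 0, beside 0.228%, and in mock non-B cells the share of all genes was 0.192%. Bound in both IR lists were 17 members, and the share of all genes bound in both was not computed at this minimum. With a minimum of 8, mock B cells held 1 member and 1.28% of all genes. A window of 10 kb on either side gave 4 members in mock B cells, 3.11 and 1.56% of all genes in the mock lists, and 8 and 7 members with an unsplit element in irradiated B cells and irradiated non-B cells. With CpG-rich genes as background the share bound was 63.1, 62 and 0.137% in irradiated B cells, irradiated non-B cells and Trp53-/- spleen, and leaving out Trp53-/- overlaps took the Trp53-/- share to 0 by construction. Members with an element numbered 1 and 1 with at most 2 mismatches, 5 and 6 with at most 4, and 19 and 15 with a spacer of 0 to 15 bases. For these element counts, and those with the 10 kb window, the share of all bound genes was not computed. An element search over the whole peak was chosen after seeing the data and moved neither count by over 1.5 times. No paired analysis was possible because there was a single library in each group, and for the same reason no replicate could be left out. Unknown depth limits every absent peak.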
